A study of Mus musculus with 12 samples.

Results

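Methylation was described at 10 germline genes in the left ventricle of weanling mice. The genes were Dazl, Ddx4, Sohlh2, Taf7l2, Sycp1, Sycp3, Syce1, Hormad1, Mael and Tdrd1, a list of germline genes named for being silenced by promoter methylation and drawn up with earlier results of these data known. Their CpG positions were all rows of the deposited table that lay within 2000 bp of either annotated end of a gene (GRCm38), each with values in at least 8 of the 12 samples. This gave 94 of the 421177 positions in the table, at 8 of the 10 genes. Dazl had 31 positions, Ddx4 17, Sohlh2 14, Sycp1 9, Sycp3 9, Mael 7, Hormad1 6 and Tdrd1 1, while Syce1 and Taf7l2 had 0. Of the 94 positions, 92 lay near the 5′ end of their gene and 2, both of Sohlh2, near the 3′ end only.

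The 12 offspring were wild-type FVB/N mice aged 3 weeks. Their mothers ate either a Teklad high-fat chow (HFD) or PicoLab regular chow (RD). The mothers, virgin FVB/NJ females, were put on their diet at 6 weeks of age, were mated after 8 weeks of it with males kept on RD, and stayed on it. The HFD group held 3 daughters and 3 sons, the RD group 4 daughters and 2 sons. Methylation was measured by reduced representation bisulfite sequencing (RRBS), in which the enzyme MspI cuts at CCGG and bisulfite converts unmethylated cytosines, and the percentage of reads that keep a cytosine is the methylation level of a position. The labels do not tie the offspring to mothers, so littermates cannot be told from unrelated animals and p-values measure the spread between these samples only. Library numbers ran from 2 to 8 in HFD and from 9 to 14 in RD, so an effect of diet and one of library order cannot be told apart.

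In mammals, many genes used only in germ cells have CpG-rich promoters that gain DNA methylation in the early embryo and keep it in somatic tissues, where the genes stay off. Primordial germ cells erase this methylation, and the genes then become active for meiosis and for the defence against transposons. In heart, a somatic tissue, such promoters are therefore known as a textbook case of CpG-rich sequence that carries methylation. RNA was not analysed here, so whether the genes were silent in these hearts is not shown.

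The promoters of 4 genes are shown because some or most of their measured CpGs lay inside them (8 of 31 positions for Dazl, 16 of 17 for Ddx4, 7 of 9 for Sycp1 and 4 of 7 for Mael), which was so for none of the other genes. Each is the 300 bases from 250 before to 50 after the annotated start, 5′ to 3′ on the gene's strand, from the RefSeq promoter table of GRCm38.p6, which is the C57BL/6J sequence and not that of FVB/N. Capitals mark the CpGs for which the table lists a value on at least one strand. Dazl has 28 CpGs in this interval and 8 measured, Ddx4 38 and 16, Sycp1 21 and 7, and Mael 24 and 4, against a median of 7 CpGs over the table's 32851 promoters.
Dazl (chr17:50293571-50293870, minus strand): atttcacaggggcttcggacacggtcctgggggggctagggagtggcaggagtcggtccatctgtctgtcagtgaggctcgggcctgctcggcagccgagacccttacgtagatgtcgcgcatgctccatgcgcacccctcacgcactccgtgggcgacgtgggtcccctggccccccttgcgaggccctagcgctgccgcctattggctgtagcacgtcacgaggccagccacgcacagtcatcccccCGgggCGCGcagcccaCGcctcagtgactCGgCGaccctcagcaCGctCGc
Ddx4 (chr13:112652261-112652560, minus strand): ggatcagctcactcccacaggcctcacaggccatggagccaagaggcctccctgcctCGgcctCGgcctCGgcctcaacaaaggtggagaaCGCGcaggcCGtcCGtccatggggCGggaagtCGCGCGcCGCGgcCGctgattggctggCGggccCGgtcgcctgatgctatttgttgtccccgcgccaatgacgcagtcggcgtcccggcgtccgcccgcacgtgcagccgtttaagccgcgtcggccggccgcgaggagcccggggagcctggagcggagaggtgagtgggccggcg
Sycp1 (chr3:102936051-102936350, minus strand): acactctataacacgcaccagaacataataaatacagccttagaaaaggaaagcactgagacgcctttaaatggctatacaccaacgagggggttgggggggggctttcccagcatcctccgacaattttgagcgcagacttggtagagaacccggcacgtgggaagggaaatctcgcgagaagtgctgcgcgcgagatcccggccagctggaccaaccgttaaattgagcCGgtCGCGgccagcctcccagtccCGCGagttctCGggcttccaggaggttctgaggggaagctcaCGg
Mael (chr1:166238695-166238994, minus strand): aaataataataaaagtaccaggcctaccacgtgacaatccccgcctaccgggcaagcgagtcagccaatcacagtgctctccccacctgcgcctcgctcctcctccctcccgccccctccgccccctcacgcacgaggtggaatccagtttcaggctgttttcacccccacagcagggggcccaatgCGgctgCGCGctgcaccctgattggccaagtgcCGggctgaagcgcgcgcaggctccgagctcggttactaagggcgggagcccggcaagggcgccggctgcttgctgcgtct

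Motifs of an enzyme and of 2 factor families were searched in these intervals on both strands. The MspI site CCGG was present in the promoter interval of 8 of the 10 genes and in 52.8% of all promoters of the table. The 2 genes without it, Syce1 and Taf7l2, were the 2 without a measured position. Sycp3, Sohlh2, Hormad1 and Tdrd1 had the site but no measured CpG in this interval, and CCGG outside the interval was not counted. CACGTG, the E-box bound by MAX dimers, occurred at 6 genes (Ddx4, Sycp1, Sycp3, Hormad1, Mael and Tdrd1) and in 7.15% of all promoters. It began at -29 in Ddx4, at -94 in Sycp1 and at -223 in Mael, counted from the start. None of these E-boxes held a measured CpG. GCGGGAA, a form of the E2F site, occurred at Ddx4, Sycp3 and Hormad1 and in 4.60% of all promoters. The Ddx4 copy covered -136 to -130 and held a measured CpG, whose position at -134 had 78.3% ± 6.61 methylation (SD, n = 12). In the promoters of the 10 genes, 0 matches of 1 motif shared bases with a match of another. A gene counts if any of its annotated starts has the motif, whereas the shares are per promoter interval and not matched for CpG content. The counts are therefore no measure of enrichment. These are matches of letters and not tests of binding.

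The germline genes were methylated in heart at levels that few gene starts reached. For each gene, positions with values in all 12 samples were averaged within a sample, and genes with at least 3 such positions were compared. This left 6 genes, with Dazl at 94.5%, Sohlh2 at 85.3%, Ddx4 at 76.4%, Sycp1 at 74.4%, Sycp3 at 70.3% and Mael at 58.6% as means over the 12 samples. The place of Dazl rests on this choice of positions, since its 15 positions near 0 further into the gene lack values in some samples and drop out. With every listed value averaged within a sample, Dazl was at 54.8%, below Mael, and the mean of its 31 position means was 49.2%. With complete positions, all 6 were above 50%, whereas 7.83% of the 7200 gene windows with at least 3 complete positions within 1000 bp of a 5′ end were above 50% and 83.9% were under 10%. The median of those windows was 2.09%. Mael, the lowest of the 6, stood above 92.96% of them and Dazl, by its complete positions, above 99.5%. The genes had been picked as methylated in somatic tissue, so their place is a description and carries no test.

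**Figure D1:**
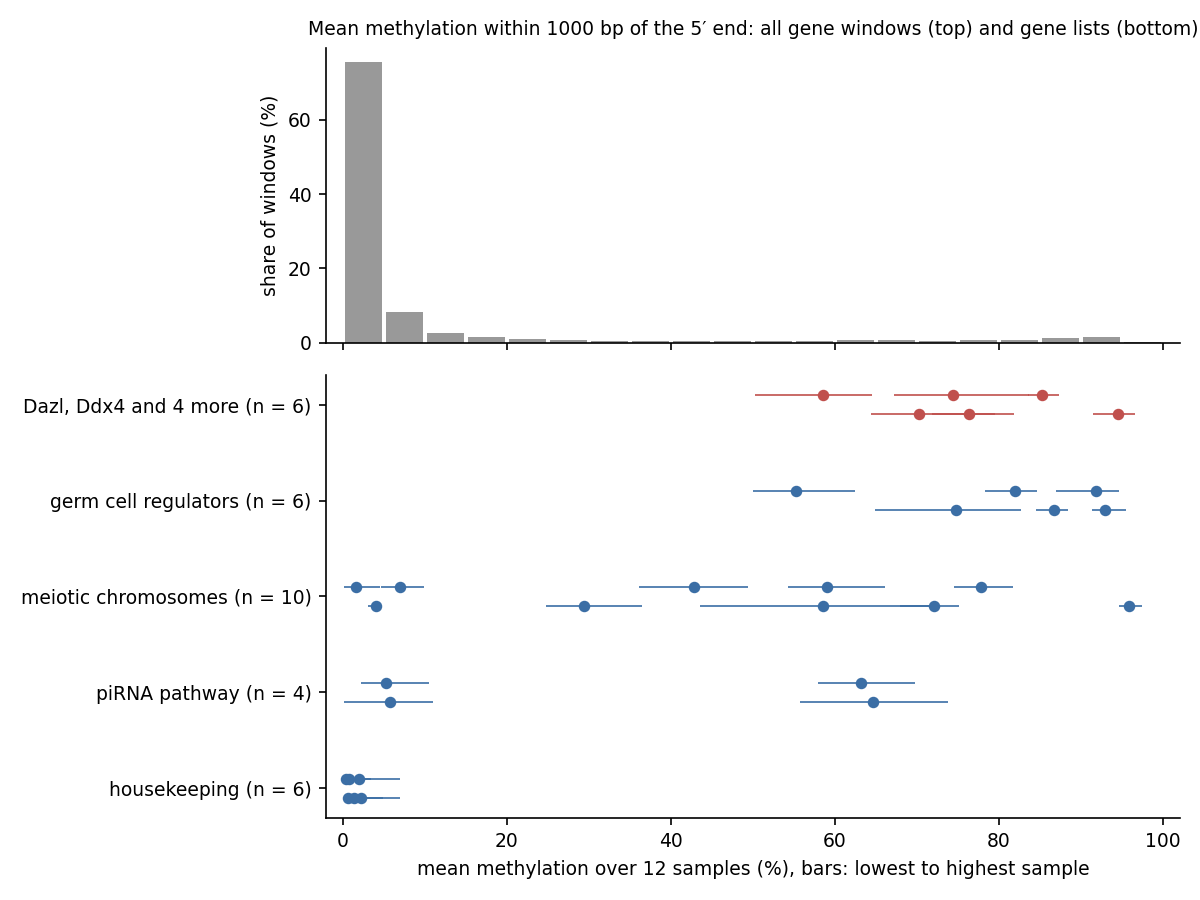
Top, share of all 7200 gene windows (vertical axis, %) by mean methylation of the positions within 1000 bp of the 5′ end (horizontal axis, %, bins of 5 points). Bottom, windows of 5 gene lists on the same axis, points for the mean over 12 samples and bars from the lowest to the highest sample. The 6 germline genes studied lie between 58.6% and 94.5%, and the housekeeping windows lie at 2.27% or lower.

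Other germline genes were spread over a wider range. Of a list of germ cell regulators and further germline genes (20 genes), 6 had such a window and all 6 were above 50%. They were Rpl10l, a ribosomal protein gene of the testis, at 92.9% ± 1.25, Brdt, a testis bromodomain gene, at 91.8% ± 2.10, Tex101 at 86.7% ± 1.23, Slc25a31, the germ cell adenine nucleotide carrier, at 81.9% ± 2.03, Zfp42 at 74.7% ± 5.62 and Meioc at 55.3% ± 3.55 (SD, n = 12). Of the list of meiotic chromosome genes (23 genes), 5 of 10 windows were above 50% and 3 were under 10%. Its highest were the window shared by Tex14 and Rad51c at 95.9%, Msh4 at 77.8% and Sycp2, a partner of Sycp3 in the axial element, at 72.1%. Its lowest were Syce2 at 1.66%, Terb1 at 4.09% and Stag3 at 6.98%. For the piRNA pathway (16 genes), 2 of 4 windows were above 50%, the one shared by Mov10l1 and Mlc1 at 64.6% and Henmt1 at 63.1%, while Tdrd5 was at 5.83% and Pld6 at 5.24%. The 6 windows of 12 housekeeping genes ran from 0.457% at Tbp to 2.27% at Eef1a1, with B2m, Ppia, Rplp0 and the window shared by Sdha and Ccdc127 between them. Windows shared with a neighbouring gene cannot be assigned to either gene.

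Dazl encodes an RNA-binding protein needed for germ cells to form and mature. Its 31 positions fell into 2 stretches with opposite levels. The 16 positions from -1 to 234 bp relative to the start (chromosome 17, 50293386 to 50293621) had values in all 12 samples and site means of 84.9% at 179 bp to 98.99% at 28 bp. The position at 31 bp varied most, with 92.1% ± 11.5 (SD, n = 12). Averaged per sample, they ran from 91.5 through a median of 94.2 to 94.8% in HFD and from 91.6 through 96.1 to 96.6% in RD offspring. All 12 samples were thus heavily methylated across the start, and RD male 2 at 91.6% lay below the other RD samples, which began at 95.1%.

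Further into Dazl, the methylation was near 0. The 15 positions from 588 to 822 bp (50292798 to 50293032) had site means of 0 to 4.33%, and 3 of them, at 637, 770 and 784 bp, were at 0 in every sample with a value. The depth of these values and the FVB/N sequence there were not examined. The highest single value in this stretch was 13.3%, while the lowest in the stretch at the start was 62.5%. Over the 11 samples with values, the average of this stretch ran from 0 to 2.65%. The positions had 10 or 11 values each. RD male 2 had a value at 0 of the 15 and RD female 2 at 5, whereas the other 10 samples had all 15. An average over every listed position therefore mixes different positions in different samples, and it was 91.6% in RD male 2 and 47.5 to 73.2% in the other 11 samples.

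**Figure D2:**
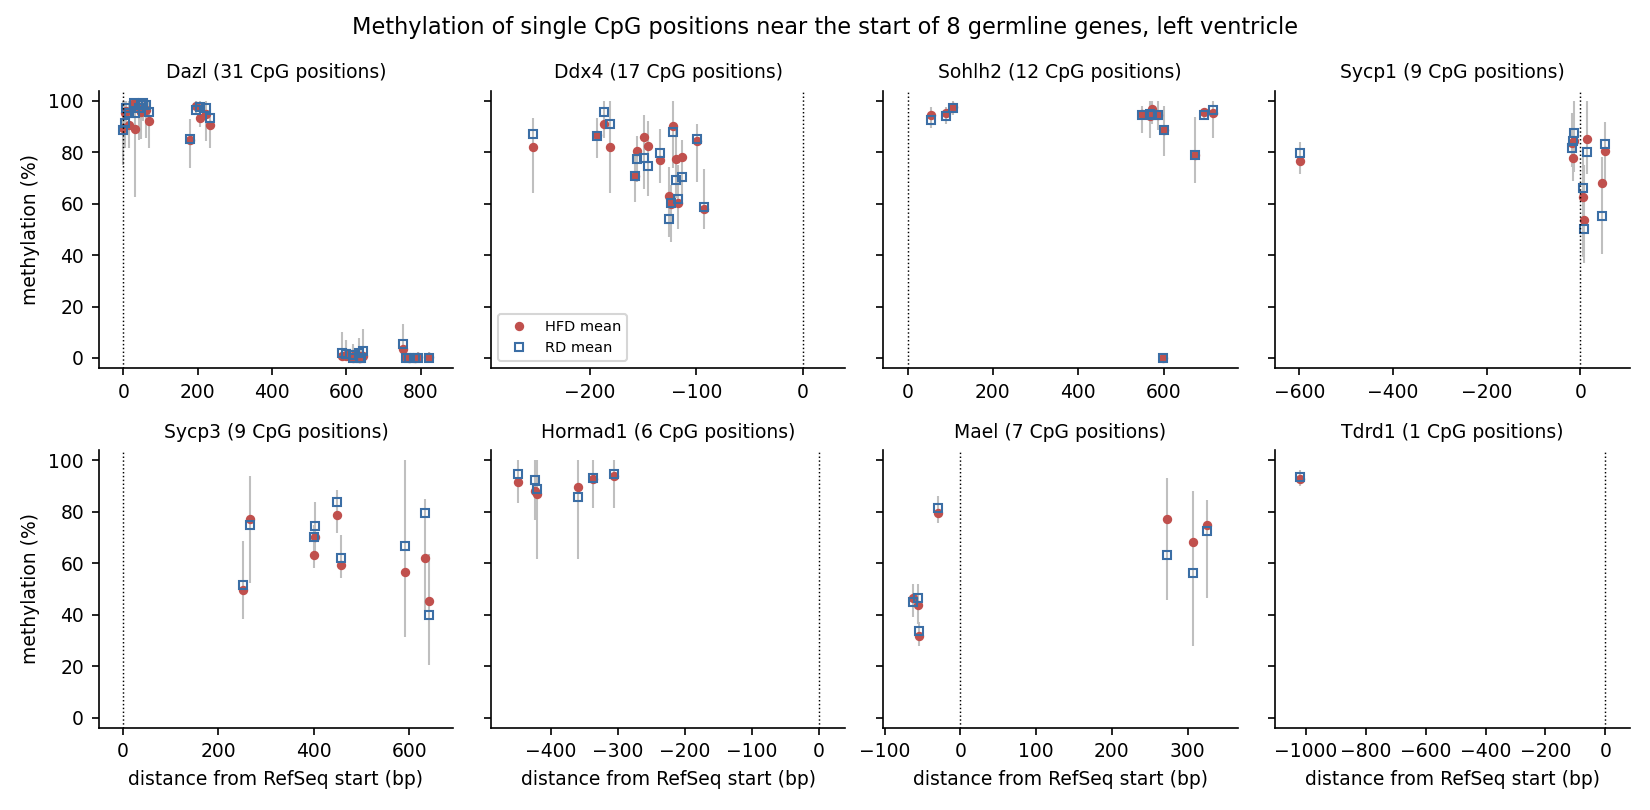
Methylation (vertical axis, %) of each CpG position near the 5′ end of 8 germline genes against its distance from the nearest RefSeq start (horizontal axis, bp, positive into the gene, dotted line at the start). Filled circles are HFD means, open squares RD means (up to 6 samples each), and grey bars run from the lowest to the highest sample. The step in Dazl from 91.96% at 234 bp to 1.30% at 588 bp and the position of Sohlh2 at 0 stand out, and the HFD and RD means lie close together at most positions.

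Ddx4 encodes the mouse Vasa homologue, an RNA helicase of germ granules. Its 17 positions lay upstream of the RefSeq promoter table's start, at -253 to -93 bp (chromosome 13, 112652403 to 112652563), but inside the annotated span of the gene. Levels per sample ran from 71.8 through a median of 77.2 to 81.9% in HFD and from 73.2 through 75.6 to 78.2% in RD. The site means had an SD of 11.3 points between positions. At a single position, the SD between samples had a median of 7.03 points, and the sample levels, which average 17 positions, had an SD of 2.94 points. The lowest position, at -93, had 58.2% ± 6.67 and the highest, at -187, 93.2% ± 5.01 (SD, n = 12). The position at -181 varied most between samples, with 86.5% ± 10.4. Neighbours could differ, as with 88.96% at -122 and 60.0% at -124.

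Sohlh2 encodes a helix-loop-helix transcription factor of early spermatogonia and oocytes. Its 12 complete positions (chromosome 3, 55182100 to 55182760) lay from 56 to 716 bp into the gene. Apart from 1 position they had means of 78.9% at 673 bp to 97.4% at 106 bp. That exception, at 599 bp (55182643), was listed at 0 in all 12 samples, between positions at 94.4% and 88.6%. Whether FVB/N mice carry a CpG there was not tested. With it, the level ran from 83.6 through 85.4 to 87.3% in HFD and from 83.9 through 85.3 to 85.8% in RD, the narrowest spread of the 6 genes (SD 1.19 points over the 12 samples). Without it the mean was 93.0% ± 1.30 (SD, n = 12), which would place Sohlh2 next to Dazl. The 2 positions near the 3′ end had means of 87.2% and 84.6% over 11 samples, the second with the largest SD of the gene's positions, 10.2 points. Taf7l2, a TAF7-like gene by name, had no measured position.

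Sycp1 encodes the transverse filament protein that zips paired chromosomes together in the synaptonemal complex. Of its 9 positions (chromosome 3, 102936047 to 102936699), 8 spanned the start from -19 to 53 bp and 1 lay at -599. Sample levels ran from 67.2 through 74.7 to 83.7% in HFD and from 69.1 through 73.9 to 78.6% in RD. This was the widest spread among the 6 genes, with an SD of 4.61 points over all 12 samples. HFD male 4 was highest and HFD female 4 lowest. Within the start, methylation was uneven, with 85.8% ± 8.34 at -13, 51.9% ± 11.3 at 7 and 82.5% ± 7.75 at 15 (SD, n = 12). The position at 47 bp varied most, with 61.7% ± 12.8. The lone upstream position had 78.2% ± 3.37.

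Sycp3 encodes an axial element protein of the same complex. It had 9 positions at 252 to 641 bp into the gene (chromosome 10, 88459839 to 88460228), 4 of them complete. Levels over the 4 ran from 64.4 through 67.2 to 72.4% in HFD and from 69.1 through 71.9 to 79.5% in RD, and the diets overlapped. RD male 2 was the highest. The complete position at 448 bp had the highest mean, 81.3% ± 4.48 (SD, n = 12). The 5 positions with missing values had means of 42.5 to 76.1% and SDs of 9.95 to 22.4 points, wider than the 4.48 to 5.72 points of the complete ones. The lowest mean of them was at 641 bp, and the widest spread at 591 bp, with 62.2% ± 22.4 (SD, n = 9). Averaging within each sample those of the 9 that had a value gave 65.7% in place of 70.3%. Hormad1, which encodes a protein of meiotic chromosome axes, had 6 positions at -450 to -306 bp (chromosome 3, 95559227 to 95559371) with means of 87.5% at -359 to 94.2% at -306. The position at -421 varied most, with 88.1% ± 14.1 (SD, n = 9). Only the position at -306 was complete, at 94.2% ± 6.78 (SD, n = 12). Syce1, a central element gene of the synaptonemal complex, had no measured position.

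Mael, or Maelstrom, acts in the piRNA pathway that silences transposons in the germ line. It was the least methylated of the 6 genes and held the largest contrast between neighbouring positions apart from Dazl and Sohlh2. Its 7 positions (chromosome 1, 166238418 to 166238806) formed 2 stretches. Just upstream of the start, the position at -29 had 80.6% ± 3.35, while those at -54, -56 and -62 had 32.7% ± 3.35, 45.2% ± 5.31 and 45.6% ± 4.10 (SD, n = 12). The lowest sample at -29, at 75.8%, was above the highest sample at the other 3 positions, at 52.1%. Inside the gene, at 273 to 326 bp, the means were 62.2 to 73.6% with SDs of 10.4 to 15.8 points, the largest at 307 bp. The gene level ran from 55.95 through 59.9 to 64.5% in HFD and from 50.2 through 57.8 to 59.8% in RD. RD male 2 was the lowest. In the inner stretch it had 48.9% and the other RD samples 61.7 to 70.2%. Tdrd1, a Tudor protein of the same pathway, had 1 position, at -1021 bp from the nearest RefSeq start (chromosome 19, 56825188), at 93.2% ± 1.96 (SD, n = 12).

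**Figure D3:**
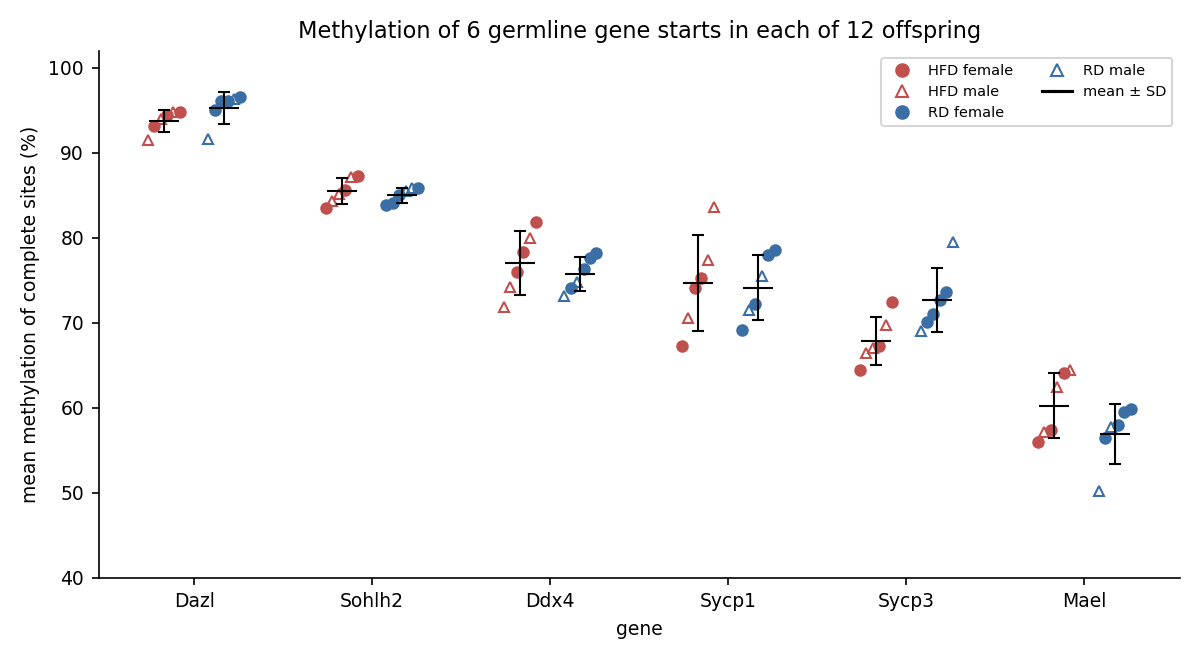
Methylation level of 6 germline genes (vertical axis, %, not starting at 0) in each of the 12 offspring, as the mean of the positions with values in all samples. Red is HFD and blue RD, circles are females and triangles males, and black bars give the mean ± SD of each diet (n = 6). HFD and RD overlap for every gene, and Ddx4, Sycp1 and Sycp3 overlap one another. Dazl is at 94.5% by these positions (49.2% as the mean of all 31 listed ones) and Sohlh2 at 85.3% (93.0% without its position at 0).

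Over all 94 positions, 49 had a mean above 80%, 29 a mean of 20 to 80% and 16 a mean under 20%. The 16 were the 15 inner positions of Dazl and the Sohlh2 position at 0. Between genes, the neighbours Ddx4, Sycp1 and Sycp3 in the order of levels overlapped in their samples. The samples of Sohlh2 overlapped with 1 sample of Sycp1, and the highest sample of Mael, at 64.5%, reached the lowest of Sycp3, at 64.4%. Those of Dazl (91.5 to 96.6%) lay above the other 5 genes only with the Sohlh2 position at 0 included and the inner Dazl positions left out. Without that position the Sohlh2 samples ran from 91.2 to 95.2% and overlapped with Dazl. The mean of all 31 listed Dazl positions was 49.2%. The SD over the 12 samples had a median of 3.43 points over the 6 genes. It was 2.91 points over the 1980 gene windows with a level of 50 to 95% and 4 to 17 complete positions.

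The question of the design was whether the mother's diet altered methylation in the offspring heart. At these genes no difference between the diets passed the test. Gene windows (2000 bp on each side of both ends, at least 3 complete positions) were fitted with limma with diet and sex as terms, and p-values were adjusted over all 13202 windows. Of the 6 genes, 0 passed an adjusted p under 0.05, against 0.00757% of all windows (1 window). At an unadjusted p under 0.05, 1 of the 6 did, against 6.86% of all windows, and it was lower in HFD, as were 2.57% of all windows at that threshold. The germline genes were lower in HFD at 2 and higher at 4, and the median difference was 0.522 points against 0.0729 over all windows. For no gene were the HFD samples separate from the RD samples, which was so at 0.523% of all windows.

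The gene with the smallest p-value was Sycp3. Its mean was 67.9% ± 2.81 under HFD and 72.7% ± 3.74 under RD (SD, n = 6 each). The difference of -4.77 points had an unadjusted limma p of 0.0307 and an adjusted p of 0.682. All 4 of its complete positions had lower HFD means, with differences of -6.80 to -2.74 points, but these come from the same animals and lie close together, so they are not independent. With 1 sample left out, the difference ran from -5.68 points (without HFD female 2) to -3.40 points (without RD male 2). The unadjusted limma p of these 12 fits ran from 0.00904 to 0.0991 and was under 0.05 in 6 of them. With all 9 positions it was -4.45 points with an unadjusted limma p of 0.215.

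Over complete positions, the other 5 genes differed by less. Mael had 60.2% ± 3.84 in HFD and 56.9% ± 3.52 in RD (SD, n = 6 each; limma adjusted p = 0.832), and without RD male 2 its difference of 3.30 points was 1.96. Dazl had 93.8% ± 1.29 and 95.3% ± 1.89 (limma adjusted p = 0.810). Here RD male 2 worked the other way, since leaving it out moved the difference from -1.54 to -2.29 points, with an unadjusted limma p of 0.00694 and an adjusted p of 0.641. Over every listed position the Dazl difference was -12.2 points (limma adjusted p = 0.806), with the inner positions near 0 missing in full in RD male 2 and in part in RD female 2. Ddx4 had 77.0% ± 3.75 and 75.7% ± 1.99, and its difference of 1.32 points ran from 0.351 (without HFD female 2) to 2.36 (without HFD male 2) when 1 sample was left out. Sycp1 had 74.7% ± 5.67 and 74.1% ± 3.79, and Sohlh2 had 85.5% ± 1.49 and 85.0% ± 0.862. The fitted direction for Sycp1 and that for Sohlh2 turned when single samples were left out.

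A missed threshold does not show equal levels, so the sizes that the data allow are given. On untransformed rates, limma's 95% intervals for HFD minus RD were -3.28 to 0.623 points for Dazl, -1.21 to 2.05 for Sohlh2 and -1.45 to 5.07 for Ddx4. They were -5.73 to 6.09 for Sycp1, -9.08 to -0.780 for Sycp3 and -1.16 to 8.08 for Mael. The interval of Sycp3 excludes 0, and none of these intervals is adjusted for the number of windows tested.

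**Figure D4:**
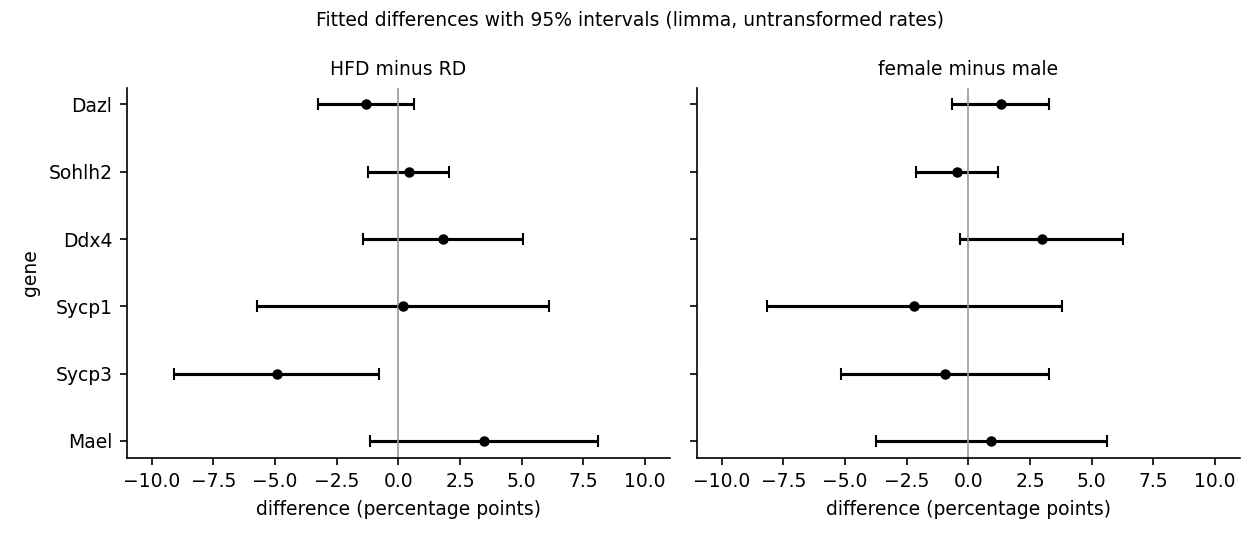
Fitted difference in methylation (horizontal axis, percentage points) for 6 germline genes, HFD minus RD on the left and female minus male on the right, with 95% intervals from limma on untransformed rates, not adjusted for the number of genes. The interval for Sycp3, -9.08 to -0.780 points, is the only one that leaves out 0, and its adjusted p of 0.682 on the log2 ratio scale does not pass.

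Single positions were tested as well. Of the 94 positions, 53 were complete and had a mean rate of 5 to 95%, and were tested with limma among 157524 such autosomal positions. None passed an adjusted p under 0.05, against 0.0102% of all positions, and 1 of 53 had an unadjusted p under 0.05, against 6.53%. At that threshold 0 of the 53 were lower in HFD, against 3.66% of all positions. HFD and RD samples were separate at 0 of the 53, against 0.482%. Whatever the p-value, the HFD mean was lower at 29 and higher at 24. The one below 0.05 was the Ddx4 position at -149, where HFD had 85.9% and RD 77.8% (limma adjusted p = 0.762). Its unadjusted limma p stayed under 0.05 in 4 of 12 fits with 1 sample left out and in 2 of 7 other alternatives, and was 0.265 with the replicate block. The smallest p-value of Mael was at 273 bp, where HFD had 77.2% and RD 63.2% (limma adjusted p = 0.783), and that of Sycp3 at 400 bp, with 63.3% and 70.1% (limma adjusted p = 0.806). For Sycp1 it was at 47 bp, with 68.2% and 55.2% (limma adjusted p = 0.807), and for Dazl at 15 bp, with 90.6% and 95.2% (limma adjusted p = 0.812). For Sohlh2 it was at 56 bp, with 94.5% and 92.5% (limma adjusted p = 0.929). With 1 sample left out, the Dazl difference of -4.61 points at 15 bp ran from -7.29 (without RD male 2) to -2.85 (without HFD male 2). The Tdrd1 position had 92.8% ± 2.43 in HFD and 93.6% ± 1.46 in RD, and the complete Hormad1 position 93.9% ± 6.93 and 94.6% ± 7.28 (SD, n = 6 each).

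Sex was compared in the same fit. Of the 6 genes, 0 passed an adjusted p under 0.05 and 0 an unadjusted one, against 0.0379% and 6.01% of all windows (4.53% with an unadjusted p under 0.05 and lower in females). Females and males overlapped at each gene, while they were separate at 0.356% of all windows. The smallest p-value was that of Ddx4, whose level was 77.5% ± 2.44 in the 7 females and 74.8% ± 3.11 in the 5 males (SD). Its limma adjusted p was 0.847. Its 95% interval on untransformed rates was -0.327 to 6.29 points.

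Germline genes outside the set did not pass for diet either. Over the 3 further lists, 30 windows were tested, of which 0 passed an adjusted p under 0.05 with limma and 1 had an unadjusted p under 0.05, against 0.00757% and 6.86% of all windows. That was Zfp42, a gene of germ cells and early embryos, where HFD offspring had 71.6% and RD offspring 77.9% (limma adjusted p = 0.682). HFD was lower in 14 of the 30 and higher in 16. The level of a tissue is an average over its cells. Of the marker genes of heart cell types, 5 cardiomyocyte, 3 endothelial and 2 fibroblast windows were tested for diet. Of these 10, 0 passed an adjusted p under 0.05 and 2 had an unadjusted p under 0.05, both endothelial and with lower means in HFD. Esam, an endothelial adhesion gene, had 40.4% in HFD and 51.7% in RD (-11.4 points, limma adjusted p = 0.119), and Tie1, an endothelial receptor, 27.9% and 37.7% (-9.86 points, limma adjusted p = 0.682). The third endothelial window, Cdh5, had 58.9% in HFD and 58.3% in RD (0.534 points). The differences of Esam and Tie1 were larger in size than that of any of the 6 germline genes over complete positions. Only 2 cardiomyocyte genes had a window within 1000 bp of the 5′ end, Ryr2 at 2.29% and Actn2 at 6.51%. In the wider windows tested for diet, Ryr2 had 2.30% in HFD and 2.28% in RD, and Actn2 44.9% and 45.1%. Myh6 had 67.3% in HFD and 71.1% in RD, and Tnnt2 and Tnni3 lay between Actn2 and Myh6 in both diets. No blood marker had a window. Methylation at gene ends does not count cells, and a part of cell composition in the spread between samples was not tested.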

How the data were processed

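DNA from the left ventricle of 12 offspring was measured by RRBS. The authors deposited one table of percent methylation, 1 row per cytosine position and 1 column per sample, and per the submitters' processing notes FastQC, Trim Galore, Bismark 0.19 and limma were used with the build mm10. Coverage minimum, strand handling and filters are not given in the sources used here. Read counts are not in the columns, so the depth of each value is unknown, and no interval for a single value was computed. All 12 columns matched 1 sample each (0 unmatched). Values were present at 385299 to 417081 of 421177 positions per sample, and at 79 to 94 of the 94 positions studied (79 in RD male 2, 80 in RD female 2).

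Gene ends came from a RefSeq table of GRCm38.p6. Of 39856 positions inside its promoter intervals, 99.98% lay on a CpG of that sequence. The table has no exons, so exon or intron is not stated. The strand was taken from the promoter table. Windows with identical positions were joined. Mean rates were turned into log2((rate + 0.05)/(1 − rate + 0.05)) and fitted with limma 3.58.1 (R 4.3.3), diet and sex as additive terms, autosomes only, two-sided, Benjamini-Hochberg over all windows or positions, threshold 0.05. Gene windows had no limit on the mean rate and single positions one of 5 to 95%. In simulated data, a diet shift of 1 on this scale was found at 185 of 200 windows beside 12 false calls, and a sex shift at 169 of 200 beside 10. At single positions a shift of 2 with diet was called at 152 of 200 and a shift of 1 at 0. The simulated noise was normal and independent between samples. On this scale the fitted diet differences of the 6 genes ran from -0.306 at Sycp3 to 0.187 at Mael. Shifts that small were not simulated.

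Replicate numbers in the labels are shared between groups. Same-numbered samples did not deviate together, so no block was used in the main fit, but this does not exclude shared litters. The members and the gene lists were chosen with earlier results of these data known. Named were all 10 genes, within a gene the positions of lowest and highest mean, largest SD and smallest diet p-value, and per further list the 3 highest and 3 lowest windows and any that passed. Other positions and genes named, the gap of 300 bp that separates stretches and the alternative without the Sohlh2 position at 0 were chosen after the values were seen. Figures were drawn with matplotlib 3.10.9.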

Additional observations from a re-analysis of the deposited data

Results flagged for a closer look

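Values were screened per diet with Dixon's 95% criterion, which compares the gap between an extreme sample and its neighbour with the whole range. Of 32 groups of values, 5 gave such a sample, where 5% of 32 is 1.6. That figure holds for normal values. Here groups share positions and percentages end at 100, so 5 against 1.6 is no test of an excess. RD male 2 was picked out 3 times, at Dazl with 91.6% against 95.1 to 96.6% in the other RD samples, at Mael with 50.2% against 56.4 to 59.8%, and at the 2 positions near the 3′ end of Sohlh2 with 100% against 80 to 85.1%. It also had values at 79 of the 94 positions, the fewest of all samples. At those 2 Sohlh2 positions HFD female 2 also had 100%, against 80 to 86.1% in the other HFD samples. RD male 1 had 48.4% in the stretch just upstream of Mael, against 51.2 to 52.9% in the other RD samples. Depth behind these values is unknown, and its part in them was not tested.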

How the results depend on the processing

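Gene levels were stable to most choices, and no diet or sex difference of the 6 genes passed under any alternative. The smallest limma adjusted p over 144 alternative fits was 0.609 for diet, and over 132 it was 0.571 for sex. Averaging every listed value within a sample moved the median level of the genes from 75.4 to 70.1%, Dazl to 54.8% and Sycp3 to 65.7%. Positions with missing values then enter, so samples average different positions. The median over positions gave Sohlh2 94.2%. Leaving out 1 sample gave a median level of 75.1 to 75.7%. The count of windows called for diet, 1 of 13202, was 3 with an offset of 0.01, 4 at mean rates of 5 to 95%, 7 within 1000 bp of both ends, 4 within 1000 bp of the 5′ end and 5 without the sex term. For sex, 5 windows became 1 with an offset of 0.01, 2 with every listed position and 3 within 1000 bp of the 5′ end. Of single positions, 16 were called, and 78 on untransformed rates, 39 without a limit on the mean rate, 1 with missing values allowed, 31 with trend and robust variances and 27 without the sex term. Leaving out 1 sample gave 1 to 4 windows for diet (4 without HFD male 2 or RD female 2), 0 to 7 for sex (0 without RD male 1, 1 without HFD male 2) and 0 to 22 positions (0 without any 1 of HFD male 2, HFD male 3, RD male 1 and HFD female 2). The cause of these moves was not tested.

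With the replicate number as a block, 0 windows were called for diet, 0 for sex and 0 positions. Correlations of the deviations of same-numbered samples in different groups were -0.09997 to 0.0398, against -0.161 to 0.200 for different numbers. Only 1 of 12 samples correlated best with its own number. The labels give no litters, so how littermates would correlate is unknown and the check cannot exclude that numbers mark litters.

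Directions turned in few places, all far from the threshold. Sex at Dazl was -0.51 on the log2 ratio scale with every listed position in place of 0.18, and diet at the Tdrd1 position was 0.093 with the replicate block. With 1 sample left out, the fitted log2 ratio differences for diet ran from -0.0816 to 0.129 at Sycp1 and from -0.00733 to 0.0803 at Sohlh2, those at the Tdrd1 and Hormad1 positions from -0.173 to 0.0331 and from -0.388 to 0.234, and those for sex from -0.163 to 0.0747 at Sycp3 and from -0.0645 to 0.109 at Mael. The planned coverage minimum was not run, because the table used gives no coverage.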
